A study of Mus musculus with 8 samples.

Results

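The antiviral effectors of the interferon response described here are *Ifit1*, *Ifit2*, *Ifit3*, *Oas2*, *Oasl1*, *Oasl2*, *Mx1*, *Mx2*, *Rsad2* and *Usp18*. They were chosen by name, and every array probe carrying one of these 10 symbols was taken, which gave 16 of 25697 probes and 10 of 18138 gene symbols. After activation, 9 of the 10 genes were brighter in the group labelled iNOS-/- than in WT, by 1.03 to 2.32 on the log2 scale, and the probe of *Ifit1* was not detected on any array.

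The study asked how inducible nitric oxide synthase (iNOS), the enzyme encoded by *Nos2*, affects the differentiation of M1 macrophages. Bone marrow cells of female mice aged 8 weeks were cultured for 7 days with GM-CSF at 10 ng/ml. The study names the resulting cells bone marrow-derived macrophages. The mice were wild type (WT) or iNOS deficient, both labelled as strain C57bl/6J, and the study's methods give the deficient line as B6.129P2-Nos2tm1Lau/J, a mutation made in another strain and moved to this one. Activated (M1) cells had LPS (200 ng/ml), a bacterial cell wall component, and IFN-γ (10 ng/ml) for 6 h, and unstimulated cells had neither. All 4 groups share the GM-CSF culture. Each group was measured on 2 Illumina bead arrays, 8 in all, and no label says that both arrays of a group came from separate mice, so p-values measure the spread between arrays, which may be technical.

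Type I interferons signal through the receptor chains IFNAR1 and IFNAR2 and the kinases JAK1 and TYK2. A complex holding STAT2 and IRF9 then binds the interferon-stimulated response element (ISRE), while IFN-γ acts mainly through the gamma-activated site (GAS). Macrophages exposed to LPS make IFN-β, so both routes operate in M1 activation. The IFIT proteins bind foreign RNA and hinder its translation, OAS enzymes make short oligoadenylates when they meet double-stranded RNA, Mx proteins are GTPases that trap viral nucleoproteins, Rsad2 (viperin) makes a chain-terminating nucleotide, and Usp18 removes the ubiquitin-like protein ISG15 and dampens signalling at IFNAR2.

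In the RefSeq table for GRCm38.p6, *Ifit2* and *Ifit3* are direct neighbours on chromosome 19, and *Ifit1bl1*, *Ifit3b* and *Ifit1bl2* are the protein-coding genes between *Ifit3* and *Ifit1*. *Oasl2*, *Oasl1* and *Oas2* lie on chromosome 5, *Mx1* and *Mx2* on chromosome 16 with *Fam3b* between them, *Rsad2* on chromosome 12 and *Usp18* on chromosome 6. No member lies on chromosome 11, which holds *Nos2*. Both *Mx1* and *Mx2* are annotated as transcribed pseudogenes in this C57BL/6J reference, so their values describe transcripts only.

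RefSeq promoter windows were matched for 6 of the 10 members, with 7 annotated starts because *Ifit2* has 2. The other members were *Oas2*, *Mx1*, *Mx2* and *Usp18*. The 250 bases before each start were searched on both strands for an ISRE core written GAAANNGAAA (TTTCNNTTTC on the other strand) and a GAS core written TTCNNNGAA, which reads the same on both strands. Of all 32851 windows of this length, 2.98% held the ISRE core and 0.18% held it at least 2 times, whereas 7.02% held the GAS core. The windows of *Ifit1* and *Ifit3* each held the ISRE core 2 times and that of *Rsad2* held it 1 time. Stretches are shown for these 3 members because they carry the matches, 5′ to 3′ on the gene's strand, with the ISRE core in capitals. They are *Ifit1* at chr19:34640739-34640888 (+), *Ifit3* at chr19:34583363-34583512 (+) and *Rsad2* at chr12:26456453-26456602 (-) in GRCm38.p6.
Ifit1: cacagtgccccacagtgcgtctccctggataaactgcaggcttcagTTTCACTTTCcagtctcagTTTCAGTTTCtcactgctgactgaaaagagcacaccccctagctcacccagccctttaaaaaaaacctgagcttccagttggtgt
Ifit3: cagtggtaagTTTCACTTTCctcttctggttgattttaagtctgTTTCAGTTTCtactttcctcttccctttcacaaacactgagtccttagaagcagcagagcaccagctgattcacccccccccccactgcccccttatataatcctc
Rsad2: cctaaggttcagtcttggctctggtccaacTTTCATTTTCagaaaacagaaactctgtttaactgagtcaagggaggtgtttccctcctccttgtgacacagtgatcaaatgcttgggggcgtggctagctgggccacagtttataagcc
In *Ifit1* the cores span bases 104 to 95 and 85 to 76 before the start, in *Ifit3* bases 156 to 147 and 122 to 113, and in *Rsad2* bases 120 to 111. Neither start of *Ifit2* and neither *Oasl1* nor *Oasl2* had these letters in its window. The single GAS core lay 241 to 233 bases before 1 start of *Ifit2*. A match is a description of letters and was not tested for binding.

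**Figure D1:**
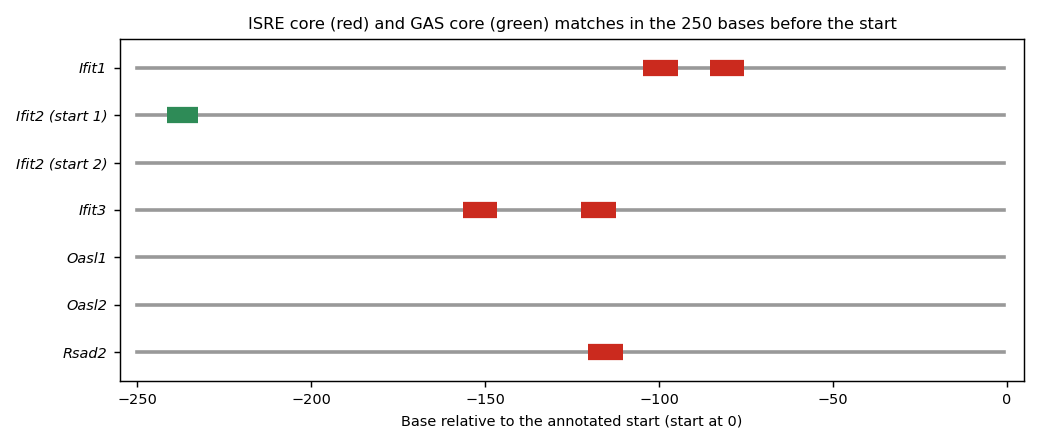
Positions of the ISRE core (red) and the GAS core (green) in the 250 bases before each of the 7 annotated starts, with the distance from the start in bases on the horizontal axis. The ISRE cores of *Ifit1*, *Ifit3* and *Rsad2* lie between 156 and 76 bases before the start.

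Values are deposited probe intensities, scaled between arrays and given as log2. A probe was taken as detected on an array at a detection p-value under 0.05 and was tested if detected on at least 2 arrays, which 13868 probes of 10163 symbols met. Of the 16 member probes, 14 were detected on all 8 arrays. The *Oasl1* probe at transcript base 901 was detected on the 4 M1 arrays and on no unstimulated array, so it entered the test only through the groups where it is bright. The single *Ifit1* probe, at base 2046, was detected on 0 of 8 arrays and was not tested. Levels of this probe were at the floor of 0 on all 4 unstimulated arrays and at 0.59 and 2.14 on the WT M1 and 1.65 and 2.17 on the iNOS-/- M1 arrays, with none of them detected. Its first 30 of 50 bases are shown because no other member's probe went undetected throughout.
Ifit1 probe: ttatatgctaaaagtattcattgaaagtga
G and C make up 26% of this probe, against a median of 52% over all probes, and 1.82% of probes are at or below 26%. Whether base composition bears on the missing signal was not tested.

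Members with several probes were *Ifit2* (bases 3240 and 3313), *Ifit3* (146 and 1458), *Oasl1* (901, 1778 and 1883), *Oasl2* (2578 and 2980) and *Usp18* (108 and 1550). Each gene is represented by its brightest probe, which is the last one named. The *Ifit3* probe at base 146 shares an unbroken run of 49 of its 50 bases with a probe designed for *LOC667370*, which carries the Entrez identifier of *Ifit3b*, so the transcripts of *Ifit3* and *Ifit3b* cannot be told apart by either of these probes. No other member probe shared 20 or more consecutive bases with a probe of another symbol. Matches to transcripts without a probe were not examined.

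*Nos2* was examined first as the targeted gene. Its probe, at base 3546, was not detected on any unstimulated array and lay at 7.45 and 7.04 on the WT M1 arrays and at 7.52 and 7.69 on the iNOS-/- M1 arrays. It was thus not lower on the arrays labelled iNOS-/-, and the sources used here do not say whether this base lies in the disrupted region, so it does not check the labels. Scale factors of the arrays ran from 0.801 to 1.30, and the median absolute difference per probe between both arrays of a group was 0.161 to 0.188. Macrophage markers were detected in every group (8 of 8 on both arrays) and none of 5 lymphocyte markers was detected. A list of dendritic cell markers moved with genotype and stimulation.

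In every tested member the order of levels was the same after activation. All 4 M1 arrays were brighter than all 4 unstimulated arrays for 15 of 15 probes, with a gap between the highest unstimulated and the lowest M1 array of 1.45 (*Oas2*) to 4.96 (*Oasl1*, base 901). Group means ran from WT unstimulated over iNOS-/- unstimulated and WT M1 to iNOS-/- M1 for 13 probes. For 2 probes, those of *Rsad2* and of *Ifit2* at base 3240, the unstimulated groups were in the opposite order. Neither the separation nor this order was counted over all tested probes. Of these, 20.2% were called higher in the WT response and 26.2% in the iNOS-/- response.

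The IFIT genes were the first group examined. *Ifit2* had log2 intensities of 5.73 and 5.92 on the WT unstimulated arrays, 6.21 and 6.07 on the iNOS-/- unstimulated arrays, 10.01 and 10.10 on the WT M1 arrays and 11.84 and 12.08 on the iNOS-/- M1 arrays. Each M1 pair lay clear of the other and far above the unstimulated arrays, while the unstimulated groups lay close together. The difference between the M1 groups was 1.91 (standard error 0.13, 3.75-fold, limma adjusted p = 0.000367).

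For *Ifit3* the values were 6.95 and 6.89 (WT unstimulated), 7.24 and 7.25 (iNOS-/- unstimulated), 9.71 and 9.80 (WT M1) and 11.30 and 11.35 (iNOS-/- M1). The 4 groups did not overlap. Between the M1 groups *Ifit3* differed by 1.57 (standard error 0.08, 2.97-fold, limma adjusted p = 0.00023). The probe at base 146, which also matches *Ifit3b*, differed by 1.88 (standard error 0.26), and the probe named for *Ifit3b* itself by 2.00 (standard error 0.09).

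Among the OAS family, *Oas2*, a catalytically active synthetase, lay at 5.42 and 5.33 on the WT unstimulated, 6.45 and 6.12 on the iNOS-/- unstimulated, 7.90 and 7.94 on the WT M1 and 8.86 and 9.03 on the iNOS-/- M1 arrays. Its 4 groups formed separate steps. The step between the M1 groups, 1.03 (standard error 0.14, 2.04-fold, limma adjusted p = 0.00269), was the lowest among the 9 genes.

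*Oasl1*, an OAS-like protein without synthetase activity that represses translation of *Irf7* mRNA, had the widest range. It lay at 4.28 and 3.33 (WT unstimulated), 5.27 and 5.30 (iNOS-/- unstimulated), 10.00 and 10.09 (WT M1) and 12.38 and 12.35 (iNOS-/- M1). The WT unstimulated arrays were the faintest and differed most from each other, and both arrays of each other group nearly coincided. The M1 groups differed by 2.32 (standard error 0.30, limma adjusted p = 0.00243), the highest value among the 9 genes.

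*Oasl2*, the second OAS-like gene, lay at 8.27 and 8.33 on WT unstimulated arrays, at 8.88 and 8.74 on iNOS-/- unstimulated arrays, at 10.45 and 10.57 on WT M1 arrays and at 12.44 and 12.28 on iNOS-/- M1 arrays. Here too the groups did not overlap. The M1 groups differed by 1.85 (standard error 0.11, 3.60-fold, limma adjusted p = 0.000266).

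Of the Mx genes, *Mx1* gave 3.55 and 2.53 in WT unstimulated, 5.69 and 5.59 in iNOS-/- unstimulated, 8.25 and 8.23 in WT M1 and 10.04 and 9.99 in iNOS-/- M1 arrays. The WT unstimulated arrays were near the detection limit and differed from each other by more than any other pair of this gene. *Mx2* gave 3.99 and 4.07, 4.90 and 4.88, 7.83 and 8.03, and 9.51 and 9.51 in the same order of groups. Its 4 groups were tight and separate. The M1 groups differed by 1.78 (standard error 0.32, 3.43-fold, limma adjusted p = 0.00801) for *Mx1* and by 1.58 (standard error 0.10, 2.98-fold, limma adjusted p = 0.000305) for *Mx2*.

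*Rsad2* lay at 8.41 and 8.28 on the WT unstimulated arrays but at 7.70 and 7.76 on the iNOS-/- unstimulated arrays, then at 11.86 and 11.99 on the WT M1 and 13.56 and 13.51 on the iNOS-/- M1 arrays. It was the member whose unstimulated groups stood in the reverse order without overlap. After activation the iNOS-/- arrays exceeded the WT arrays by 1.61 (standard error 0.10, 3.06-fold, limma adjusted p = 0.000275).

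*Usp18*, a negative regulator among the members, lay at 8.29 and 8.26 (WT unstimulated), 9.23 and 9.27 (iNOS-/- unstimulated), 11.09 and 11.10 (WT M1) and 13.26 and 13.35 (iNOS-/- M1). Both arrays of each group nearly coincided. Between the M1 groups it differed by 2.21 (standard error 0.08, 4.63-fold, limma adjusted p = 0.000121), the smallest adjusted p among the members.

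**Figure D2:**
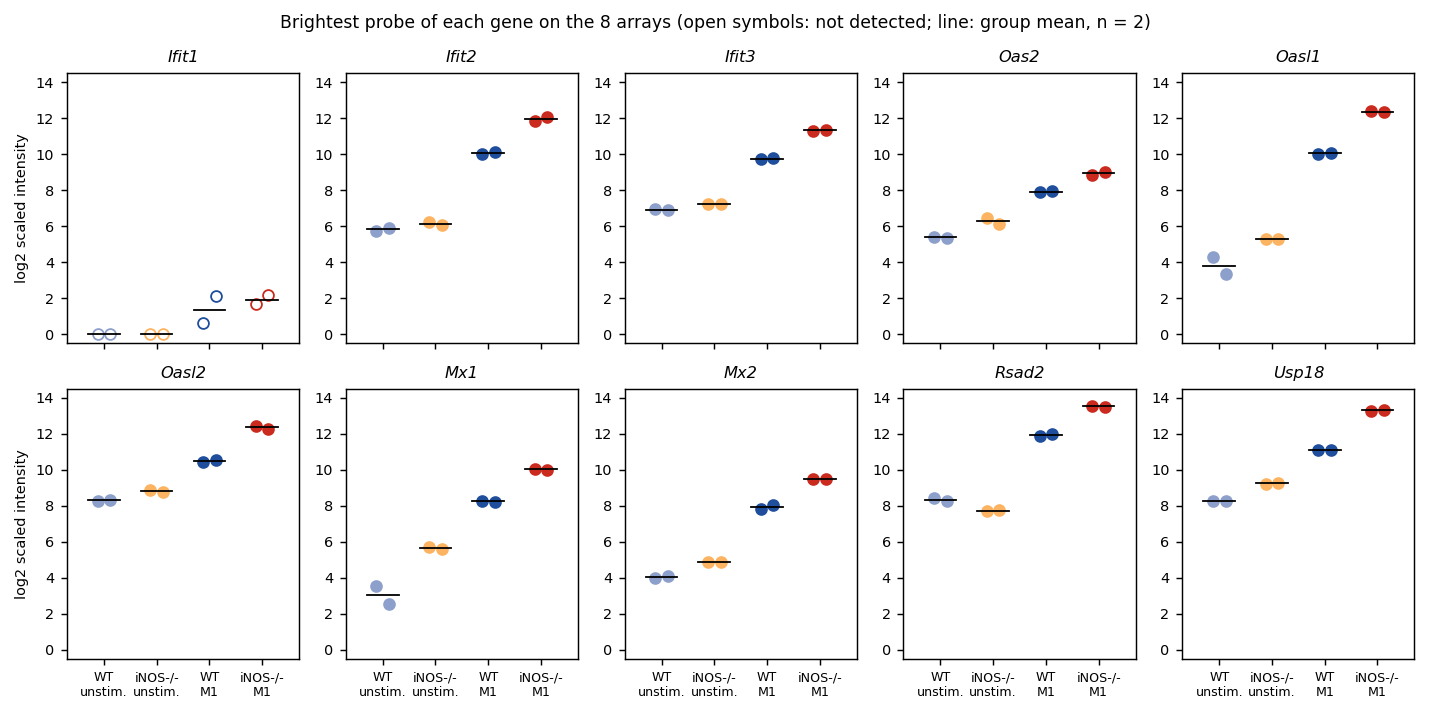
Log2 scaled intensity of the brightest probe of each of the 10 members on the 8 arrays, by genotype and stimulation; filled points were detected, open points were not, and the line is the mean of 2 arrays. The iNOS-/- M1 arrays are the highest for 9 genes, and the *Ifit1* probe is not detected on any array.

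Between the M1 groups, all 15 tested probes and all 9 tested genes were called higher on the iNOS-/- arrays (limma adjusted p under 0.05), where 24.2% of all tested probes were called higher. The median difference of the 9 genes was 1.78, against 0.00 over all probes. Both iNOS-/- M1 arrays exceeded both WT M1 arrays for 15 of 15 member probes and for 37.8% of all probes tested. Adjusted p-values of the members ran from 0.000121 to 0.0248, the last for *Oasl1* at base 901, whose call was lost with any 1 M1 array left out (adjusted p 0.0819 to 0.0976), while its difference stayed between 2.21 and 2.38. RNA came from whole cultures, so more cells expressing a gene and more of its RNA per cell cannot be told apart.

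Without stimulation the members did not move together. Of the 9 genes, 7 were called higher on the iNOS-/- arrays, *Rsad2* was called lower and *Ifit2* was not called, and of 15 probes 9 were called higher and 1 lower. Among all tested probes 15.9% were called higher and 16.2% lower. The median difference of the genes was 0.86, against -0.02 over all probes.

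*Mx1* had the largest difference between the unstimulated groups, 2.60 (standard error 0.32, 6.07-fold, limma adjusted p = 0.0037), which was 1.35 under neqc, a background correction with quantile normalization, and 1.64 with values under 16 set to 16. *Oasl1* differed by 1.48, *Usp18* by 0.97, *Oas2* by 0.91, *Mx2* by 0.86, *Oasl2* by 0.51 and *Ifit3* by 0.32, all higher on the iNOS-/- arrays. *Rsad2* fell by 0.61 (standard error 0.10, limma adjusted p = 0.0074). For *Ifit2* the difference was 0.32 (95% confidence interval -0.01 to 0.64, limma adjusted p = 0.124), although its unstimulated arrays did not overlap.

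Several of these smaller differences lost their call when an array was left out. The call of *Ifit3* (limma adjusted p = 0.035) was lost with each of the 8 arrays left out in turn (adjusted p 0.0521 to 0.142). That of *Oasl2* (adjusted p = 0.0193) was lost without any 1 of the 4 unstimulated arrays (adjusted p 0.0517 to 0.0965). The call of *Oasl1* (adjusted p = 0.0173) was lost without either iNOS-/- unstimulated array (adjusted p 0.076 and 0.0779). In each case the sign of the difference was kept.

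LPS plus IFN-γ raised all 15 probes and all 9 genes in WT cells, where 20.2% of all tested probes were called higher. The median rise of the 9 genes was 3.58, from 2.22 for *Oasl2* to 6.24 for *Oasl1*, against 0.07 over all probes. *Mx1* rose by 5.20, *Ifit2* by 4.23, *Mx2* by 3.90 and *Rsad2* by 3.58, and *Ifit3*, *Usp18* and *Oas2* by 2.83, 2.82 and 2.54. The order of the rises depended on the processing. Under neqc *Oasl1* rose by 5.155, *Mx1* by 3.62 and *Mx2* by 2.92, and the median was 2.92. *Rsad2* stayed between 3.51 and 3.64 under every alternative. The *Oasl1* probe at base 901 was undetected before stimulation. In the main scaling it rose at least 21.6-fold, measured against the faintest detected signal on each array. Its rise was 2.91 on the log2 scale under neqc.

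In the cells labelled iNOS-/-, all 15 probes and all 9 genes rose as well, where 26.2% of all tested probes were called higher. The median rise was 4.38, from 2.66 for *Oas2* to 7.08 for *Oasl1*, against 0.04 over all probes. *Ifit2* rose by 5.82, *Rsad2* by 5.80, *Mx2* by 4.62, *Mx1* by 4.38, *Ifit3* by 4.08, *Usp18* by 4.06 and *Oasl2* by 3.55. Here the *Oasl1* probe at base 901 rose at least 121-fold in the main scaling, and by 4.83 on the log2 scale under neqc.

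**Figure D3:**
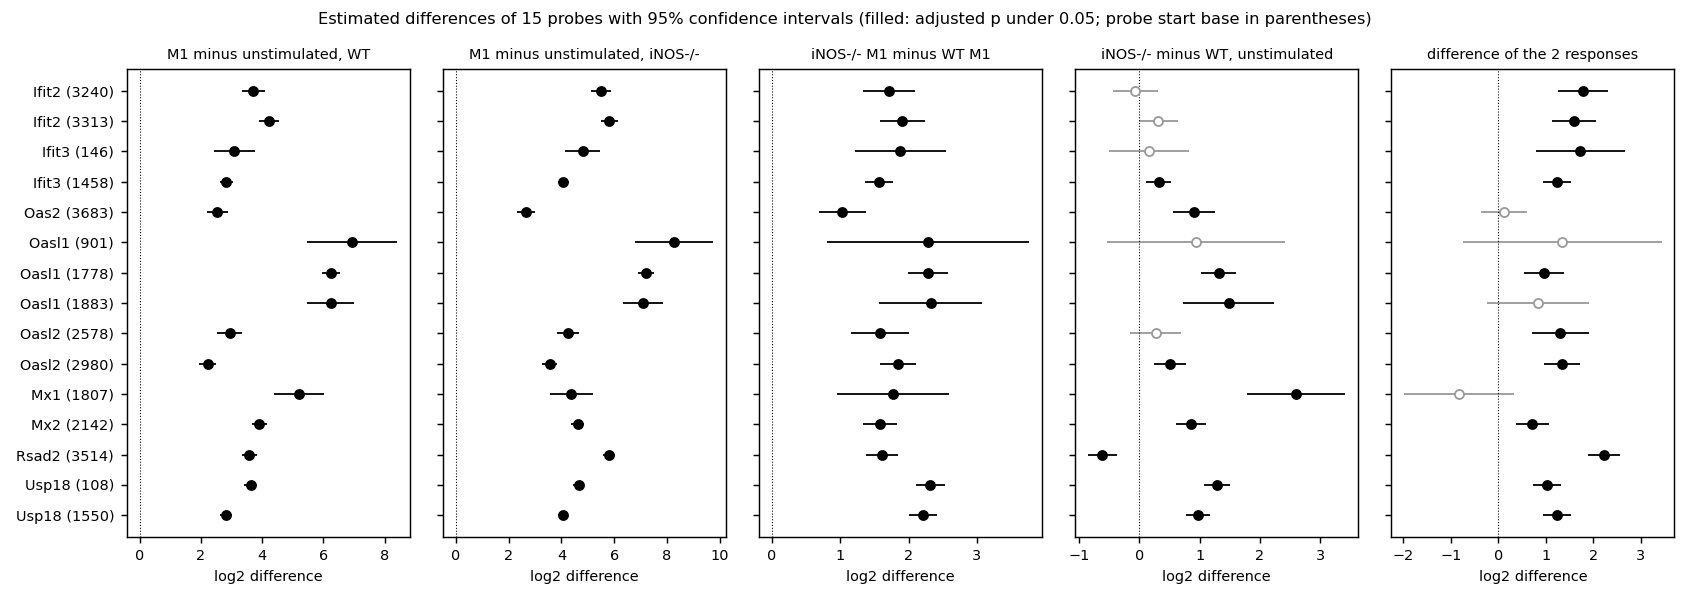
Estimated log2 differences of the 15 tested member probes in 5 comparisons, with 95% confidence intervals; filled points have a limma adjusted p under 0.05, and the number beside each gene is the probe's first transcript base. All 15 points are filled in the first 3 panels, and *Rsad2* alone is filled below 0 between the unstimulated groups.

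The rise was compared between genotypes by the interaction term of the same fit, the iNOS-/- response minus the WT response. It was called higher for 11 of 15 probes and 6 of 9 genes and lower for none, where 20.8% of all tested probes were called higher. The median over the 9 genes was 1.24, against 0.01 over all probes.

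*Rsad2* had the largest difference in response, 2.22 (standard error 0.13, limma adjusted p = 0.000436), made up of a lower start and a higher end on the iNOS-/- arrays. The responses of *Ifit2*, *Oasl2*, *Ifit3*, *Usp18* and *Mx2* exceeded those in WT by 1.59, 1.34, 1.25, 1.24 and 0.71. All 6 genes ended higher on the iNOS-/- arrays than on the WT arrays.

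The other 3 genes were not called. *Oas2* differed in response by 0.12 (95% confidence interval -0.37 to 0.61, limma adjusted p = 0.652), since it was higher on the iNOS-/- arrays by 0.91 before and 1.03 after activation. *Oasl1* gave 0.84 (interval -0.23 to 1.91, adjusted p = 0.17), and its probe at base 1778 gave 0.97 (standard error 0.17, adjusted p = 0.00785). With values under 16 set to 16, the probe at base 1778 gave 2.00, and its difference between the unstimulated groups went from 1.32 to 0.28 and was no longer called (adjusted p = 0.0799). *Mx1* gave -0.82 (interval -1.98 to 0.34, adjusted p = 0.207).

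For *Mx1* and *Oasl1* this value depended on the faint WT unstimulated arrays. Without the first WT unstimulated array *Mx1* gave -1.34 (adjusted p = 0.0064), and with values under 16 set to 16 it gave 0.14 (adjusted p = 0.101). *Oasl1* gave 1.31 (adjusted p = 0.00641) without the second WT unstimulated array and 0.37 (adjusted p = 0.114) without the first.

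**Figure D4:**
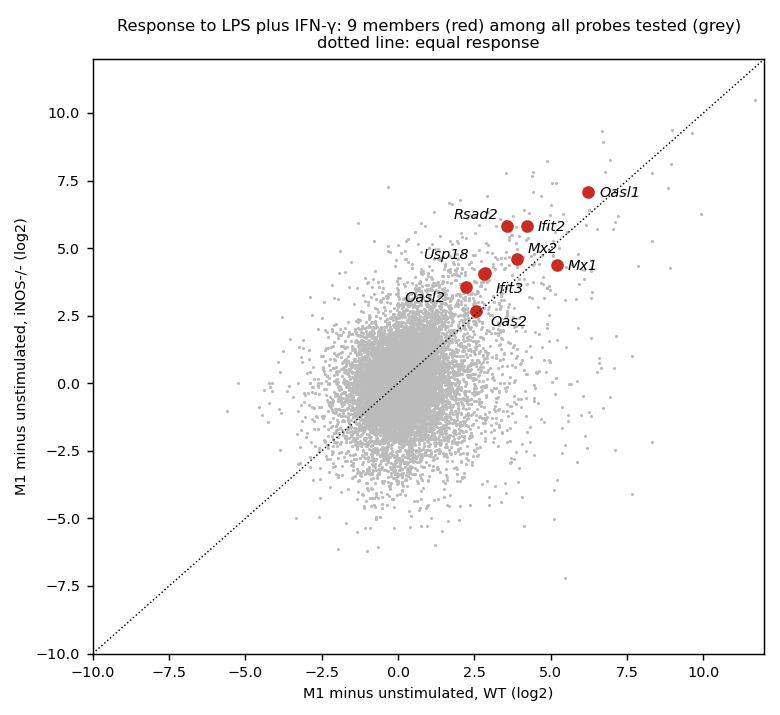
Log2 response to LPS plus IFN-γ in WT (horizontal axis) and iNOS-/- (vertical axis) cells for the brightest probes of 9 members (red) and all tested probes (grey); the dotted line marks equal responses. *Rsad2* and *Ifit2* lie farthest above the line, *Oas2* lies near it and *Mx1* lies below it.

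Probes of 1 gene differed in the same direction between the M1 groups and in both responses, with sizes that varied. The 2 probes of *Usp18* differed between the M1 groups by 2.21 and 2.32, the 3 of *Oasl1* by 2.28 to 2.32, those of *Ifit2* by 1.71 and 1.91, those of *Ifit3* by 1.57 and 1.88 and those of *Oasl2* by 1.58 and 1.85. In the WT response the probes of *Usp18* gave 2.82 and 3.63 and those of *Oasl2* 2.22 and 2.93. Between the unstimulated groups the probes of *Oasl2* gave 0.51 (called) and 0.27 (not called), and those of *Ifit2* gave 0.32 and -0.07, neither called.

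The other genes of the pathway were then counted by list, from ligand to target, in the comparison of the M1 groups, where 24.2% of all tested probes were called higher and 24.3% lower. Of 12 interferon ligands on the array 4 were tested, and *Ifnb1*, encoding IFN-β, was called higher on the iNOS-/- arrays, with 7.40 ± 0.03 (SD, n = 2 arrays) there against 5.79 ± 0.04 (SD, n = 2 arrays) in WT M1, a difference of 1.61 (standard error 0.38, limma adjusted p = 0.0199). Before stimulation it was undetected in both genotypes. The tested *Ifna1*, *Ifna6* and *Ifna12* gave -0.70, 0.92 and -1.31 and were not called. *Ifng* did not pass the detection filter.

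Of 6 tested receptor and kinase genes, 5 were called higher and 1 lower. The receptor chains *Ifnar2* and *Ifngr2* differed by 0.58 and 0.50, and the lower one was *Ifngr1*, the ligand-binding chain of the IFN-γ receptor, which fell by 2.15 (limma adjusted p = 0.000219). *Ifnar1* was not detected on any array. Of 5 factors, 4 were called higher, namely *Stat2* by 1.54, *Irf9* by 1.02, *Irf1* by 1.45 and *Irf7*, which drives interferon genes, by 2.52.

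All 3 tested genes of the ISG15 system, the modifier that Usp18 removes, were called higher. *Isg15*, listed on the array under *LOC100038882* and matched by its Entrez identifier, differed by 2.28, its activating enzyme *Uba7* by 1.55 and its conjugating enzyme *Ube2l6* by 1.76. Of 5 other OAS family genes tested (*Oas1a*, *Oas1b*, *Oas1c*, *Oas1g* and *Oas3*), 4 were called higher. *Oas1c*, which is among these 4, was not detected on the WT M1 arrays. Of 15 other antiviral interferon-stimulated genes 13 were called higher and none lower, with a median of 1.57, and of 3 tested negative regulators *Socs1* and *Socs3* were called higher.

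Between the unstimulated groups, 2 of the 6 receptor and kinase genes (*Jak2* and *Tyk2*) were called higher on the iNOS-/- arrays and *Jak1* lower. Of the 5 factors *Irf7* and *Stat2* were called higher, by 1.44 and 0.72, *Irf1* fell by 1.01, and *Irf9* and *Irf3* gave 0.25 and 0.22 and were not called. *Isg15* was higher by 1.83 and *Uba7* by 0.73, *Ube2l6* gave -0.12 and was not called. Of the other OAS family genes 1 of 5 (*Oas1g*) was called higher, as were all 3 tested negative regulators, *Socs1*, *Socs3* and the phosphatase *Ptpn6*. Of the 15 other antiviral genes 3 were called higher and none lower, beside 15.9% and 16.2% of all tested probes. None of the 4 ligands was called (limma, adjusted p of *Ifnb1* 0.288).

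For the difference in response, 20.8% of all tested probes were called higher and 21.1% lower. The response to activation was called larger on the iNOS-/- arrays for 4 of 5 factors, from 0.77 for *Irf9* to 2.46 for *Irf1*. It was also called larger for *Uba7* and *Ube2l6*, for 2 of 5 other OAS family genes, for *Ifnb1* and for *Socs3*. Of the 15 other antiviral genes it was called larger for 9 and smaller for 1. The 1 that was smaller was *Ifitm1*, a membrane protein that restricts virus entry, whose response differed by -5.83 (standard error 0.41, limma adjusted p = 0.000635). *Ifitm1* lay at a mean of 2.64 on WT unstimulated, 10.29 on iNOS-/- unstimulated, 9.22 on WT M1 and 11.04 on iNOS-/- M1 arrays. It was detected on only 1 of the 2 WT unstimulated arrays, so the size of its difference in response rests on a value near background. Of the 6 receptor and kinase genes the response was called larger for 3 and smaller for 2 (*Ifngr1* and *Jak2*). For *Isg15* the difference in response was 0.45 (standard error 0.20, limma adjusted p = 0.13) and was not called.

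**Figure D5:**
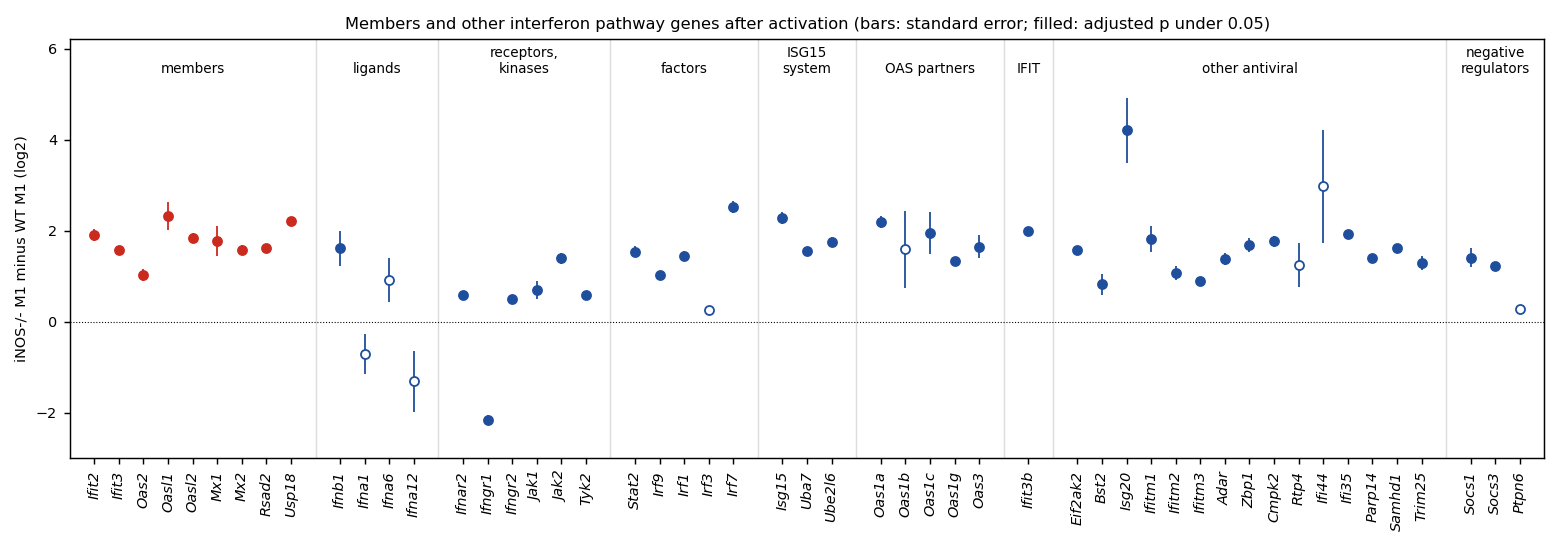
Log2 difference between iNOS-/- M1 and WT M1 arrays for 9 members (red) and the tested genes of 8 interferon pathway lists (blue), with standard errors; filled points have a limma adjusted p under 0.05. Most pathway genes lie above 0, *Ifngr1* lies at -2.15, and the members lie between 1.03 and 2.32. The group marked OAS partners holds other OAS family genes.

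Likeness to the members was measured as the root mean square distance between a gene's 3 log2 differences from WT unstimulated and the median of the 9 members (0.86 for iNOS-/- unstimulated, 3.58 for WT M1 and 5.19 for iNOS-/- M1). Candidates were the tested non-member genes whose brightest probe was detected on every M1 array, which are the groups where the members were bright. Over these 4 group means and 7690 candidate genes, the nearest were *Ccl5* (distance 0.13), *Slfn1* (0.22), *Pla1a* (0.30), *LOC100048346* (0.32) and *Upp1* (0.35). The array describes *LOC100048346* as similar to the protease UBP43, an older name of Usp18. Among the members *Mx2* was nearest to their median (0.25) and *Oasl1* farthest (2.50).

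Markers of other cells moved with the groups. The summed intensity of 9 dendritic cell markers ran from 396 to 440 on WT unstimulated, 4621 to 4768 on iNOS-/- unstimulated, 6053 to 6206 on WT M1 and 19179 to 20231 on iNOS-/- M1 arrays, the same order of groups as for 13 member probes. *Il4i1* made up most of this sum outside the WT unstimulated arrays. Its log2 means were 11.73 (iNOS-/- unstimulated), 12.15 (WT M1) and 13.77 (iNOS-/- M1). Before stimulation, 7 of the 8 tested dendritic cell markers were called higher on the iNOS-/- arrays and 0 lower, with a median difference of 3.66. Among all tested probes 15.9% were called higher and 16.2% lower in that comparison. *Cd209a* and *Dpp4*, which are among these 7, were undetected in WT unstimulated cells. Between the M1 groups 4 of the 8 tested dendritic cell markers were called higher and 1 (*Cd209a*) lower, beside 24.2% and 24.3% of all tested probes. *Flt3* was not detected in any group, and *Cd209a* was not detected in iNOS-/- M1 cells. Of 6 markers of plasmacytoid dendritic cells, a source of type I interferon, *Ccr9* and *Ly6d* were not detected in any group and *Siglech* was not detected in WT unstimulated or iNOS-/- M1 cells. The summed intensity of this list ran from 378 to 402, 388 to 392, 526 to 608 and 1551 to 1649 in the same order. Of the 3 tested, *Tcf4* was called higher on the iNOS-/- M1 than on the WT M1 arrays (mean 10.61 against 8.97) and made up most of the sum there. *Siglech* was called lower by limma (-1.73, adjusted p = 0.02), and *Cox6a2* gave -0.48 and was not called.

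Granulocyte markers (7 on the array) summed to 1122 to 1157 on WT unstimulated, 1657 to 1727 on iNOS-/- unstimulated, 1383 to 1498 on WT M1 and 3930 to 4034 on iNOS-/- M1 arrays. *S100a8* made up most of this sum in every group. Between the M1 groups 3 of these 7 were called higher on the iNOS-/- arrays and 0 lower, beside 24.2% and 24.3% of all tested probes. Markers of dividing cells (11) summed to 704 to 802, 2561 to 2572, 2133 to 2287 and 953 to 958. Between the M1 groups 7 of 9 tested were called lower on the iNOS-/- arrays and 1 higher, where 24.3% of all tested probes were called lower. Before stimulation all 9 were called higher on the iNOS-/- arrays, where 15.9% of all tested probes were called higher. Macrophage markers summed to 29733 to 30114, 23092 to 23926, 31162 to 33766 and 35934 to 36462, with 3 called higher and 4 lower between the M1 groups. The part of these cell type markers in the differences of the antiviral effectors was not tested.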

How the data were processed

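The authors deposited 1 table with a probe intensity per array (GenomeStudio, mean over beads, not normalized between arrays) together with a detection p-value for each intensity. Its header names no background subtraction, which the methods do name. As undetected probes lie around 0, nothing further was subtracted here. The submitters' processing notes also name limma 3.14.4. The array is named MouseRef-8 in the series' design text and MouseWG-8 in the methods, and the build of the array's annotation is not given in the sources used here.

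The methods name rank-invariant normalization, a 1 in place of negative values, log2 and limma. Details that they leave out were chosen here. Intensities were scaled to the mean array over rank-invariant probes (rank change under 0.05, ranks between 0.5 and 0.9, a line fitted robustly without intercept by MASS 7.3.60.0.1), all values under 1, not just negative ones, were set to 1 and log2 was taken. Probes detected at p under 0.05 on at least 2 arrays were fitted together over 8 arrays in limma 3.58.1 under R 4.3.3 (lmFit, eBayes), and p-values were Benjamini-Hochberg adjusted over 13868 probes and called under 0.05. Arrays were grouped by their titles, and 0 value columns lacked a sample. The contrasts were iNOS-/- against WT in each state, the response to activation within each genotype, and the interaction of genotype and activation. For a probe undetected in a group, the fold is a bound against the higher of its own value and the faintest detected signal per array.

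All members and every one of their probes are named. The pathway lists, the marker lists and the likeness rule were chosen with earlier results of these data known. Listed genes under an older array symbol were matched through Entrez identifiers or synonyms in the RefSeq table (GRCm38.p6). Some genes of these lists are not reported here. The fit was also run on simulated data in which few probes changed, in the iNOS-/- M1 group only. That setting does not test the scaling where many probes change, as here. Alternatives were neqc, quantile normalization, an intercept in the scaling line, a floor of 16, no or a stricter detection filter, only the arrays compared, a replicate block, an intensity trend, the mean of a gene's probes, and each array left out. Precision is limited by having 2 arrays in each group.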

Additional observations from a re-analysis of the deposited data

Results flagged for a closer look

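The response to LPS plus IFN-γ differed between genotypes by the interaction term of limma for 11 member probes, each with a larger rise on the arrays labelled iNOS-/-. The differences in response on the log2 scale were 2.22 for *Rsad2*, 1.78 and 1.59 for *Ifit2* (bases 3240 and 3313), 1.73 and 1.25 for *Ifit3* (bases 146 and 1458), 1.31 and 1.34 for *Oasl2* (bases 2578 and 2980), 1.03 and 1.24 for *Usp18* (bases 108 and 1550), 0.97 for *Oasl1* (base 1778) and 0.71 for *Mx2*. Their adjusted p-values ran from 0.000436 (*Rsad2*) to 0.0165 (*Ifit3*, base 146). The call of *Ifit3* at base 146 was lost without the second iNOS-/- unstimulated array (1.61, adjusted p = 0.0566) and without the first WT M1 array (1.54, adjusted p = 0.0526), and its value ran from 1.38 to 2.08 over the arrays left out.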

How the results depend on the processing

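The count of member probes called moved by less than 1.5 times under every alternative run. With 1 array left out in turn it was 14 to 15 between the M1 groups, 7 to 9 between the unstimulated groups (10 in the full data), 15 for each response and 10 to 12 for their difference. No difference between the M1 groups and no response changed sign. Signs that did turn belonged to differences that were not called. Between the unstimulated groups these were *Ifit2* at base 3240 (0.086 without the first iNOS-/- unstimulated array, range -0.219 to 0.086 over the arrays left out) and *Ifit3* at base 146 (-0.19 with an intercept in the scaling line and -0.19 without the second WT unstimulated array, range -0.19 to 0.50). For the difference in response they were *Oas2* (-0.04 without the second iNOS-/- unstimulated array, range -0.04 to 0.28) and *Mx1* (0.12 under neqc and 0.14 with a floor of 16). The call of the *Oasl1* probe at base 901 between the M1 groups was also lost with an intercept (adjusted p = 0.0616) and without a detection filter (adjusted p = 0.0651). With the replicate number as a block the counts were 15, 9, 15, 15 and 11 probes, and *Ifit3* at base 1458 lost its call between the unstimulated groups (adjusted p = 0.0655). Same-numbered arrays did not deviate together (correlations -0.04 to 0.02), so the numbers were not taken as pairs. The mean of a gene's probes left 9, 6, 9, 9 and 6 genes called, against 9, 8, 9, 9 and 6. neqc and quantile normalization lowered the median difference of the 9 genes between the M1 groups from 1.78 to 1.33 and 1.39, and for the difference in response from 1.24 to 0.87 and 0.68, where *Usp18* at base 1550 went from 1.24 to 0.54 and 0.51 and kept its call. An intercept moved the median of all probes to 0.20 between the M1 groups and 0.29 for the difference in response, where the members' medians were 1.70 and 1.11. Quantile normalization moved the all-probe median of the iNOS-/- response to -0.13, where the members' was 4.11. The share of higher calls in the WT response was 57.6%, but 44.4% with neqc and 47.4% with quantile normalization, and in the iNOS-/- response 52.4%, against 41.9% under quantile normalization. The cause of these shifts was not tested. Intensities near background limit *Ifit1*, *Oasl1* at base 901 and *Ifit3* at base 146. In unstimulated WT cells they also limit *Mx1* and *Oasl1* at bases 1778 and 1883. The WT response of *Ifit3* at base 146 was 3.08, but 1.63 under neqc.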
